A study of Mus musculus with 24 samples.

Results

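The mitochondrial fission and fusion genes Fis1, Dnm1l, Mff, Mtfp1, Gdap1, Mfn1, Mfn2, Opa1, Oma1 and Yme1l1 were examined in irradiated thymocytes of male and female mice. Members were the non-control probes of the arrays whose accession leads to 1 of these 10 genes, and each probe was kept apart from the other probes of its gene. This gave 15 probes of the 55681 measured, of which 28020 carry a gene name, and 10 of the 21150 genes named on the arrays.

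RNA of primary thymocytes from C57BL/6J mice a few weeks old was hybridised to 24 Agilent 2-colour arrays, 3 for each of 8 groups. Each sex had a non-irradiated control group, a low dose group (0.075 Gy of X-rays), a high dose group (1.75 Gy of γ-rays), and a RAR (radio-adaptive response) group that received 0.075 Gy of X-rays and, 6 h later, 1.75 Gy of γ-rays. All mice were of the same strain and the labels name no transgene or drug. Every value is a log2(Cy5/Cy3) ratio, with thymocyte RNA in Cy5 and the Universal Mouse RNA reference pool in Cy3, so that a ratio below 0 means less signal than in the reference. Thymus was dispersed and strained rather than sorted, so the RNA is that of a bulk cell suspension, in which fewer cells of a type and less RNA per cell cannot be told apart.

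Mitochondria form a network that divides and joins continuously. Division is carried out by DRP1, the GTPase encoded by Dnm1l, which is drawn to the outer membrane by receptors such as MFF and FIS1, while MTFP1 acts from the inner membrane and GDAP1, an outer membrane protein, is best known from peripheral nerve. Joining needs the mitofusins MFN1 and MFN2 in the outer membrane and OPA1 in the inner membrane, where OPA1 also keeps the cristae closed, and the proteases OMA1 and YME1L1 cut OPA1 into its short forms. In thymocytes, which die readily by apoptosis after irradiation, the release of cytochrome c from the cristae is a step of the mitochondrial death pathway.

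The sequence before the transcription start is shown for 5 of the 6 genes with a probe past the threshold under RAR, those with 1 start in the table, and for the upstream start of Fis1, whose bright probe was called in no comparison. The sequences are from RefSeq (GRCm38.p6), cover 250 bases before the start and run 5′ to 3′ on the coding strand. Capitals mark the palindromic motif of nuclear respiratory factor 1 (NRF1) or the letters CCGGAAG (the ETS core bound by GABP), on either strand.
Mtfp1, chr11:4095432-4095681, minus strand: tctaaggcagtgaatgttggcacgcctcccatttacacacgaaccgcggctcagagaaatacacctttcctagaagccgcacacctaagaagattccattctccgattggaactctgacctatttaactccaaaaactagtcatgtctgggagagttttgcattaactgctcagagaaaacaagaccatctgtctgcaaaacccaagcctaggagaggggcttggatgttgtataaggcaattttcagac
Oma1, chr4:103313596-103313845, plus strand: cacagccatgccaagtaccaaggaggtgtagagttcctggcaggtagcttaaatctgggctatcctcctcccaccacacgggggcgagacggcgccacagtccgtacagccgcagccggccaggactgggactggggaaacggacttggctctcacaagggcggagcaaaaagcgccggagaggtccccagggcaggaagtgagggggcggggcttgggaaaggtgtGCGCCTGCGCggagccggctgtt
Yme1l1, chr2:23156255-23156504, plus strand: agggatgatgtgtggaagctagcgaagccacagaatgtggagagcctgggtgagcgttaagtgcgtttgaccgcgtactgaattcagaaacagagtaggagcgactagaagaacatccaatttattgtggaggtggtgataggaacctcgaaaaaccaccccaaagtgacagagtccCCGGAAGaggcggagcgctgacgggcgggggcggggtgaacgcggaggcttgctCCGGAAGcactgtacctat
Mfn1, chr3:32529232-32529481, plus strand: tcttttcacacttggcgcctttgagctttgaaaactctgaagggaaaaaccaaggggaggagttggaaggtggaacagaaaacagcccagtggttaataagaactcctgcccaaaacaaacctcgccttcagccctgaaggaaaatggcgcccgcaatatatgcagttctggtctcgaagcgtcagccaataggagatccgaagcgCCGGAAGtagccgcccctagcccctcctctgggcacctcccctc
Opa1, chr16:29579084-29579333, plus strand: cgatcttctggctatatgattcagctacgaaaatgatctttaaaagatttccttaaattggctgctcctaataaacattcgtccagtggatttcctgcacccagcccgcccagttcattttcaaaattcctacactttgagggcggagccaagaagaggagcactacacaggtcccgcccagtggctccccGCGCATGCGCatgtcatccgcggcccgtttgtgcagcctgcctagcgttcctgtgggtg
Fis1, chr5:136953025-136953274, plus strand: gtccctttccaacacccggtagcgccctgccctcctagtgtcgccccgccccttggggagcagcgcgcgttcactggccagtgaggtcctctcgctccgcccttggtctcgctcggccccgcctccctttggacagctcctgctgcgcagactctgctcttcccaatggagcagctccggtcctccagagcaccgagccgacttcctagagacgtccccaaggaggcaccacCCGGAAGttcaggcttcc

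Of the members, 9 genes had a promoter in the RefSeq table, with 14 starts in all, and Gdap1 was not matched. The NRF1 motif was found before Oma1 (ending 13 bases before the start) and Opa1 (49 bases before it), 2 of 14 windows, against 3.74% of all 32851 windows of the same length. The ETS letters were found before Yme1l1 at 2 places, Mfn1 and Fis1, 3 of 14 windows against 6.91% of all. The GC box letters GGGCGG were in 11 of 14 windows (8 of 9 genes) against 32.7% of all, and the E-box letters CACGTG and the CRE letters TGACGTCA were in 0 of 14 against 6.02% and 1.55%. Some windows of Mff and of Mfn2 overlap each other, and the background was not matched for GC content. Mtfp1, the member called in most comparisons, had none of these 5 motifs in its window. These are matches of letters on either strand, not sites of binding.

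Signal was sufficient for 13 of the 15 probes, which were well above background in Cy5 on at least 23 of 24 arrays. The 2 dim probes were Gdap1 (A_51_P462391), above background on 1 array in Cy5 and on 0 in Cy3, and the second Fis1 probe (A_55_P1952533), above background on 3 arrays in Cy5. Differences of these 2 rest on values near background and have no settled size. Cd4, Cd8a, Cd8b1, Rag1 and Ptcra, defining genes of developing thymocytes, were well above background on 24 of 24 arrays. On the third female RAR array 34.7% of all probes were well above background in Cy5, the lowest of the 24, and on the other arrays the share was between 49.3% and 71.8%. The only Cy5 values of Oma1, Yme1l1 and Mfn2 (A_55_P1984481) that were not well above background came from that array. The arrays lay on 3 slides of 8, with the female controls all on one slide and the female high dose and RAR arrays on the other two, so that in females these comparisons with control cannot be told apart from the slide. In males only slide 2 held both RAR and control, with 1 array of each. The other male RAR arrays lay on slide 1 and the other male controls on slide 3, so this comparison is largely mixed with the slide too.

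The first question was whether RAR thymocytes differed from control thymocytes in these genes. In females 5 of 15 probes were past the threshold (1.5-fold or more, with an adjusted p under 0.05 across the 55681 probes), and 5 of the 5 were lower, against 20.4% of all probes past it in either direction and 10.8% past it and lower. In males 6 of 15 were past it and 6 of the 6 were lower, against 24.4% and 13.3%. Probes for Mtfp1, Oma1, Yme1l1, Mfn1 and Mfn2 were called in both sexes and 1 probe of Opa1 in males. The median difference of the 15 probes was −0.42 in females and −0.52 in males on the log2 scale, beside −0.04 and −0.015 over all probes.

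These shares are also read against well-measured probes, since the array holds many dim ones. Among the 32711 probes kept by a filter on dim probes, 34.7% were called in females and 40.1% in males, and of the 13 bright members 5 (38.5%) and 6 (46.2%) were, so the share of members called was near that background. Without the fold threshold, 9 of 15 probes had an adjusted p under 0.05 in females and 10 of 15 in males, all of them lower, against 28.0% and 31.9% of all probes in either direction. The 3 RAR and 3 control arrays did not overlap for 10 of 15 probes in females and 13 of 15 in males, against 36.9% and 42.6% of all probes. The backgrounds without the fold threshold and for non-overlap include the dim probes, and were not taken among the probes kept by the filter. These counts therefore do not show whether the members differ from well-measured probes. With 3 arrays against 3, the exact two-sided permutation test of a single probe cannot go below p = 0.1.

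By role, 1 of 6 fission probes was called in each sex, 2 of 7 fusion probes in females and 3 of 7 in males, and 2 of 2 probes of the OPA1 proteases in both. Over all probes 20.4% were called in females and 24.4% in males, and 34.7% and 40.1% of those kept by the filter on dim probes. Of the 6 fission probes 2 are the dim ones of Fis1 and Gdap1. Roles of 2 to 7 probes are too small to rank by such shares, and no test compared them. The plot of differences from control shows the 15 probes in the order of these roles.

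**Figure D1:**
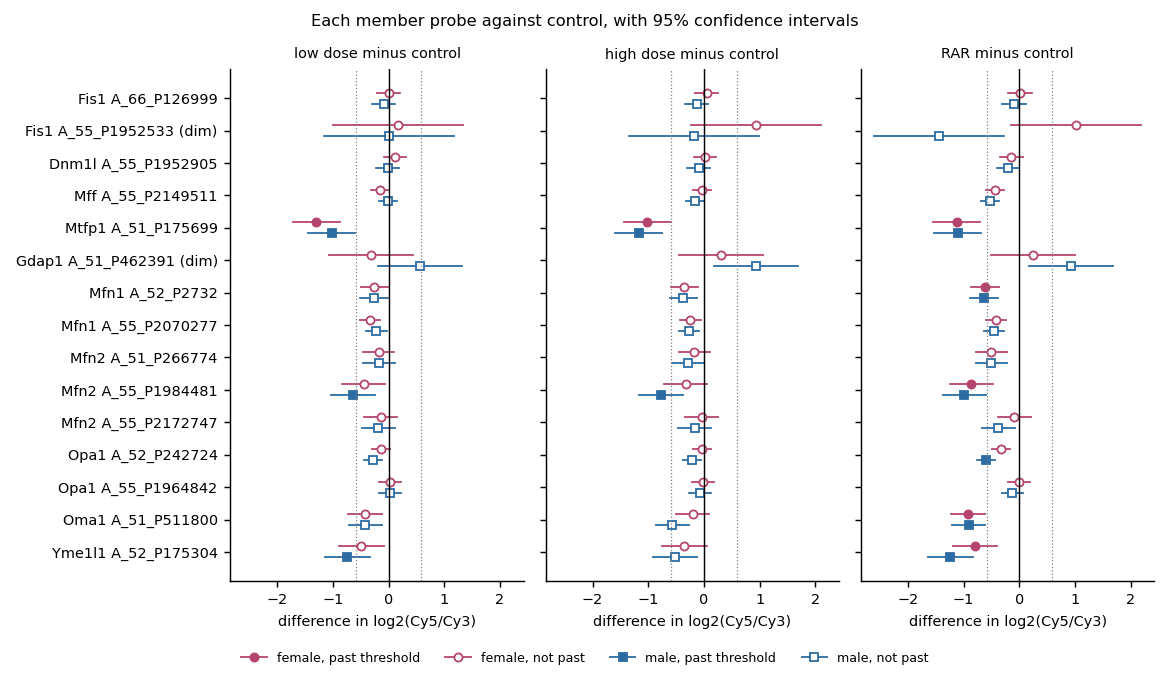
Difference of each member probe from the control of the same sex, in log2(Cy5/Cy3), for low dose, high dose and RAR. The 95% confidence intervals are from the moderated limma fit of all 24 arrays (16 residual plus 1.63 prior degrees of freedom). Filled symbols are past the threshold, dotted lines mark 1.5-fold, circles are females and squares males. Mtfp1 lies between −1.30 and −1.02 in the 6 comparisons, while the bright Fis1 probe and Dnm1l lie between −0.20 and 0.12.

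Among the fission genes, Mtfp1 was the one that was called. In controls its probe (A_51_P175699) read −0.75, −0.97 and −1.05 in females and −1.07, −1.09 and −1.04 in males. Under RAR it read −2.42, −1.99 and −1.74 in females and −2.13, −2.41 and −1.98 in males. Every RAR array was below every control array, with no overlap in either sex. Mtfp1 was lower in females (−1.13 on the log2 scale, 2.18-fold, SE 0.2, adjusted p = 0.000267), and in males (−1.10 on the log2 scale, 2.15-fold, SE 0.2, adjusted p = 0.00026).

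Mtfp1 was also lower after either dose alone. After the low dose the probe read −2.23, −2.52 and −1.92 in females and −2.03, −2.09 and −2.14 in males, and after the high dose −1.56, −2.28 and −1.99 and −2.51, −2.22 and −1.99. All 18 irradiated arrays, from −2.52 to −1.56, lay below all 6 control arrays, from −1.09 to −0.75. Mtfp1 was called in 6 of 6 comparisons with control, with low dose differences of −1.30 in females and −1.02 in males and high dose differences of −1.02 and −1.17. The 6 comparisons share the control arrays of each sex. RAR differed from the low dose by 0.17 (95% confidence interval −0.25 to 0.59) in females and by −0.08 (−0.51 to 0.34) in males, and neither was past the threshold. Within the slides that hold both groups, the difference of Mtfp1 from control was −1.06 for male RAR, −1.04 for male high dose, −1.02 on either slide for male low dose and −0.99 for female low dose. With the slide as a block it was −0.76 (adjusted p = 0.0728) for female RAR and −0.55 (adjusted p = 0.433) for female high dose, so in these 2 comparisons the call was lost.

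**Figure D2:**
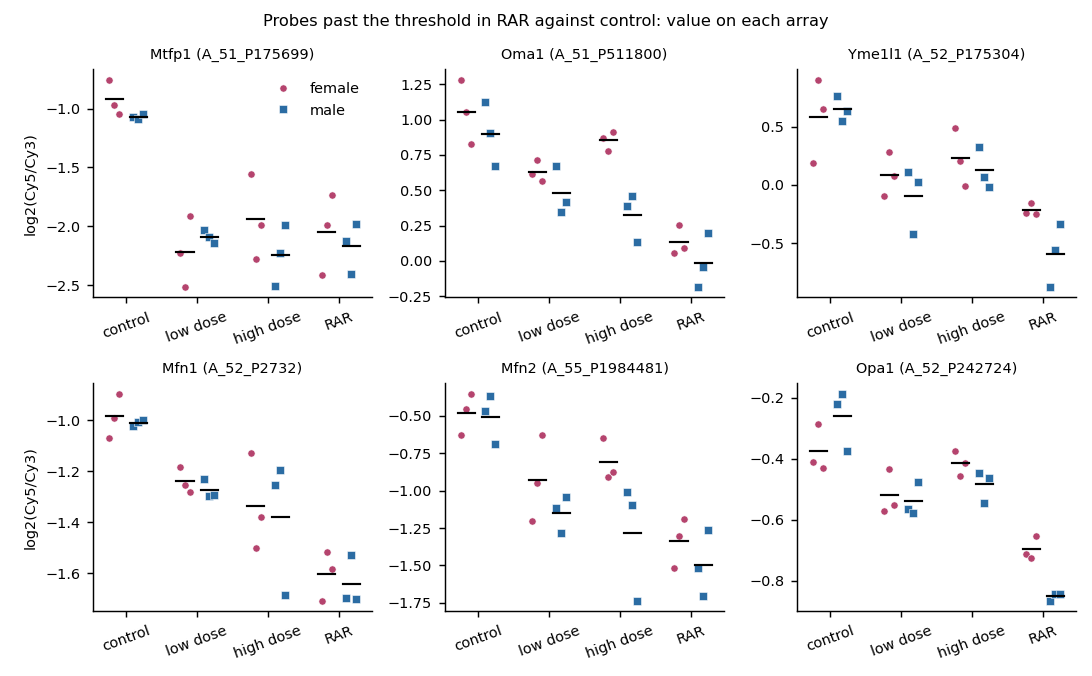
Value of 6 probes on each of the 24 arrays, as log2(Cy5/Cy3), by treatment, with circles for females, squares for males and a bar at the mean of 3 arrays. Each panel has its own vertical axis. For Mtfp1 the 3 irradiated treatments lie below the controls, and for Oma1, Yme1l1, Mfn1, Mfn2 and Opa1 the lowest group means of each sex are those of RAR.

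Mff, the receptor that draws DRP1 to the outer membrane, was lower under RAR by less than the fold threshold. Its probe (A_55_P2149511) read 0.57, 0.58 and 0.69 in female controls and 0.20, 0.21 and 0.11 under RAR. In males it read 0.57, 0.52 and 0.66 in controls and 0.10, 0.08 and −0.01 under RAR. The groups did not overlap, and the differences were −0.44 (SE 0.0764, adjusted p = 0.000216) and −0.52 (SE 0.0764, adjusted p = 2.83e-05). Mff had an adjusted p under 0.05 also for RAR against high dose, at −0.41 in females and −0.36 in males, and against low dose, at −0.28 and −0.52. The single doses differed from control by −0.16 to −0.01, with adjusted p of at least 0.173.

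Dnm1l, which encodes DRP1 itself, was past the threshold in 0 of 11 comparisons of groups. The group means of its probe (A_55_P1952905) lay between −0.30 and −0.04. RAR differed from control by −0.14 (95% confidence interval −0.34 to 0.06) in females and −0.20 (−0.40 to 0.00) in males, with adjusted p of 0.324 and 0.128. The RAR arrays lay below the control arrays without overlap, at −0.33 to −0.28 against −0.20 to −0.07 in females. In males they lay at −0.31 to −0.25 against −0.14 to −0.04. Of all probes, 36.9% in females and 42.6% in males did not overlap in either direction.

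Fis1, a tail-anchored protein of the outer membrane, was the brightest member, with a Cy5 signal at the 97.3rd percentile of all probes. Its bright probe (A_66_P126999) read between 0.21 and 0.59 on the 24 arrays, and RAR and control arrays overlapped in both sexes. The male controls (0.41 to 0.57) lay above the male high dose arrays (0.32 to 0.38) and the female controls (0.28 to 0.37). RAR differed from control by 0.01 (−0.20 to 0.22) in females and −0.09 (−0.30 to 0.12) in males, and both intervals lay within 1.5-fold either way. With the Cy5 channel alone, without the reference, the same differences were −0.37 (adjusted p = 0.00509) and −0.40 (adjusted p = 0.00334), both still under 1.5-fold. That setting also shifted the median of all probes in RAR against control, so these values cannot be read as a change of Fis1 alone. The dim Fis1 probe read −3.87, −4.28 and −3.43 in female controls, −4.32, −2.32 and −1.88 in female RAR, −3.27, −3.61 and −2.55 in male controls and −4.94, −5.15 and −3.65 in male RAR. It was not well above background on 21 of 24 arrays, was called in 0 of 11 comparisons of groups, and gives no account of Fis1. The Gdap1 probe read between −0.21 and 1.39, was not well above background on 23 arrays, and was called in 0 of 11 comparisons.

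Among the fusion genes, Mfn1 was lower under RAR with both of its probes. Probe A_52_P2732 read −1.07, −0.99 and −0.90 in female controls and −1.71, −1.52 and −1.58 under RAR. In males it read −1.023, −1.008 and −0.999 in controls and −1.70, −1.53 and −1.70 under RAR. The groups did not overlap, and the probe was lower in females (−0.62 on the log2 scale, 1.53-fold, SE 0.119, adjusted p = 0.000564), and in males (−0.63 on the log2 scale, 1.55-fold, SE 0.119, adjusted p = 0.000367). The single doses lay between, with group means from −1.38 to −1.24. Probe A_55_P2070277 had differences of −0.42 (adjusted p = 0.0012) and −0.45 (adjusted p = 0.000469), under 1.5-fold. Without the first female RAR array or the third female control array, the female difference of A_52_P2732 was −0.56 and −0.57, just under 1.5-fold.

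Mfn2, the second mitofusin, which also tethers mitochondria to the endoplasmic reticulum, was measured by 3 probes. Probe A_55_P1984481 read −0.63, −0.45 and −0.35 in female controls and −1.52, −1.31 and −1.19 under RAR. In males it read −0.47, −0.37 and −0.69 in controls and −1.52, −1.71 and −1.26 under RAR. No RAR array reached a control array, and this probe was lower in females (−0.86 on the log2 scale, 1.81-fold, SE 0.184, adjusted p = 0.00147), and in males (−0.99 on the log2 scale, 1.98-fold, SE 0.184, adjusted p = 0.000352). In males it was also lower after the high dose, at −1.01, −1.10 and −1.74 (−0.77, adjusted p = 0.00672), and after the low dose, at −1.12, −1.29 and −1.04 (−0.64, adjusted p = 0.0316). The high dose call was lost without the third male high dose array (−0.54), and the low dose call without any of 4 arrays, the first and second of male control and of male low dose (−0.65 to −0.57). With the slide as a block the difference was −0.71 (adjusted p = 0.0941) for female RAR and −0.66 (adjusted p = 0.0741) for male high dose. The other 2 probes had smaller differences. A_51_P266774 differed from control by −0.50 (adjusted p = 0.0075) and −0.50 (adjusted p = 0.00641), and A_55_P2172747 by −0.09 (adjusted p = 0.714) and −0.38 (adjusted p = 0.0471), in females and males.

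Opa1, the GTPase of the inner membrane, gave 2 different readings. Probe A_52_P242724 read −0.22, −0.19 and −0.37 in male controls and −0.87, −0.84 and −0.84 under RAR. In females it read −0.41, −0.29 and −0.43 in controls and −0.71, −0.72 and −0.65 under RAR. The groups did not overlap in either sex, and the probe was lower in males (−0.59 on the log2 scale, 1.51-fold, SE 0.0771, adjusted p = 8.58e-06), just past 1.5-fold, and by −0.32 (adjusted p = 0.00366) in females. Leaving out the first or second male control array or the first male RAR array took the male difference to between −0.58 and −0.55, under 1.5-fold. Probe A_55_P1964842 read 0.07, −0.04 and 0.09 in male controls and −0.05, −0.09 and −0.11 under RAR. Its differences were −0.0027 (−0.20 to 0.19) in females and −0.12 (−0.32 to 0.07) in males, with adjusted p of 0.99 and 0.373.

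**Figure D3:**
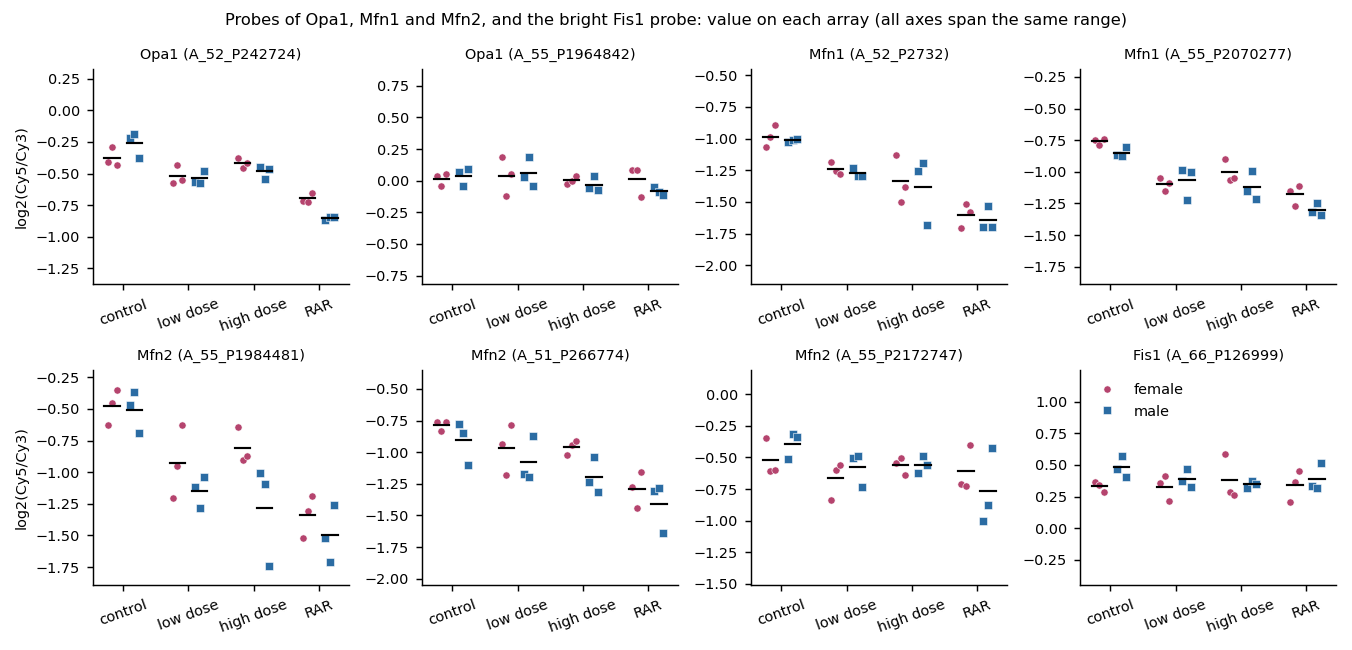
Value on each array, as log2(Cy5/Cy3), of the probes of Opa1, Mfn1 and Mfn2 and of the bright Fis1 probe, by treatment, with circles for females, squares for males and a bar at the mean of 3 arrays. All panels span the same vertical range of 1.7. The first Opa1 probe steps down under RAR to between −0.87 and −0.65, while the second stays between −0.13 and 0.19 on all 24 arrays.

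Since both probes of a gene are read on the same array, their difference per array was compared between RAR and control, with an exact two-sided permutation test within each sex over both sexes together (400 arrangements, smallest p = 0.005). This test was chosen after the values were seen, and all 5 pairs of bright probes of 1 gene were run, with p adjusted over the 5 pairs. Arrays were permuted without regard to the slide, with which RAR and control are mixed, so its p cannot tell RAR from the slide. For Opa1 the first probe minus the second was −0.39 ± 0.128 (SD, n = 3) in controls of the female sex and −0.30 ± 0.16 (SD, n = 3) in those of the male sex, and −0.71 ± 0.161 (SD, n = 3) and −0.77 ± 0.0463 (SD, n = 3) under RAR (exact p = 0.005, adjusted p = 0.0125). For Mfn2 A_55_P1984481 moved down further than A_55_P2172747, with a difference in change of −0.77 in females and −0.61 in males (exact p = 0.005, adjusted p = 0.0125), and further than A_51_P266774, at −0.36 and −0.48 (exact p = 0.02, adjusted p = 0.025). The other two Mfn2 probes differed in their change by −0.41 and −0.13 (exact p = 0.14). For Mfn1 the 2 probes differed in their change by −0.20 and −0.18 (exact p = 0.01, adjusted p = 0.0167). In the 4 pairs with an adjusted p under 0.05, the probe that moved down further was the dimmer one by median Cy5 signal. These signals were 1293 against 2218 for Opa1, 640.5 against 811.2 for Mfn1, and 242.5 against 452.9 and 826 for Mfn2. In the remaining Mfn2 pair the brighter probe (826 against 452.9) moved down further. Whether signal level has a part in these differences was not tested, and which transcripts each probe reads was not analysed here.

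The proteases of OPA1 were both lower under RAR. Oma1, a zinc metalloprotease that is activated by mitochondrial stress, read 1.28, 1.05 and 0.83 (A_51_P511800) in female controls and 0.06, 0.26 and 0.09 under RAR. In males it read 1.12, 0.90 and 0.67 in controls and −0.19, −0.05 and 0.19 under RAR. Controls were above the reference and RAR arrays near it, without overlap. Oma1 was lower in females (−0.92 on the log2 scale, 1.89-fold, SE 0.142, adjusted p = 6.93e-05), and in males (−0.91 on the log2 scale, 1.88-fold, SE 0.142, adjusted p = 5.87e-05). After the low dose it read 0.61, 0.71 and 0.57 in females and 0.67, 0.35 and 0.41 in males, and after the high dose 0.87, 0.78 and 0.91 and 0.39, 0.46 and 0.14. The single doses were called in 0 of 4 comparisons with control for Oma1, with differences from −0.57 (male high dose, adjusted p = 0.009) to −0.20 (female high dose, adjusted p = 0.447). The male high dose difference was past 1.5-fold and called without the third male control array, or without the first or second male high dose array (−0.69 to −0.60). RAR was below high dose in females, by −0.72 (SE 0.142, adjusted p = 0.00394), with no overlap of the arrays. In males that difference was −0.34 (adjusted p = 0.152).

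Yme1l1, the ATP-dependent protease of the inner membrane that faces the intermembrane space, read 0.19, 0.90 and 0.65 (A_52_P175304) in female controls and −0.24, −0.16 and −0.25 under RAR. In males it read 0.76, 0.55 and 0.63 in controls and −0.88, −0.56 and −0.34 under RAR. The groups did not overlap, although the female controls were spread. Yme1l1 was lower in females (−0.80 on the log2 scale, 1.74-fold, SE 0.191, adjusted p = 0.00358), and in males (−1.24 on the log2 scale, 2.36-fold, SE 0.191, adjusted p = 5.12e-05). After the low dose it read −0.10, 0.28 and 0.08 in females and 0.11, −0.42 and 0.03 in males, and after the high dose 0.49, 0.21 and −0.01 and 0.32, 0.06 and −0.02. In males the low dose was called (−0.74, adjusted p = 0.0165), and so was RAR against high dose (−0.71, adjusted p = 0.023). The low dose call was lost without the first male control array (−0.68) or the second male low dose array (−0.58), and the RAR against high dose call without the first male RAR array (−0.57) or the first or second male high dose array (−0.61 and −0.74). In males slide 2 held 1 RAR and 1 control array, which differed by −1.64 for Yme1l1 and −1.31 for Oma1.

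Without the third female RAR array, on which fewest probes were well above background, the 5 female RAR calls remained, with differences of −1.28 for Mtfp1, −0.90 for Oma1, −0.78 for Yme1l1, −0.93 for Mfn2 and −0.63 for Mfn1. Under another background correction and dye normalization (normexp and loess), which lowered the number of all probes called from 11350 to 6722 in females and from 13614 to 8250 in males, the RAR differences of the called members were smaller, and 1 of 15 probes in females (Mtfp1, −0.65) and 0 in males were called (Mtfp1 −0.57, adjusted p = 0.00178). With the Cy5 channel alone the male differences of Mfn1 (A_52_P2732) and Opa1 (A_52_P242724) were −0.57 each, just under 1.5-fold.

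The second question was what a single dose did. After the low dose 1 of 15 probes was called in females (Mtfp1), against 8.74% of all probes, and 3 of 15 in males (Mtfp1, Yme1l1 and Mfn2), against 6.63%. After the high dose 1 of 15 was called in females (Mtfp1), against 7.84%, and 2 of 15 in males (Mtfp1 and Mfn2), against 10.5%. All of these were lower. RAR against high dose called 1 of 15 in females (Oma1), against 7.25%, and 1 of 15 in males (Yme1l1), against 5.84%. RAR against low dose called 0 of 15 with limma, against 4.12% in females and 9.76% in males, and 7 and 8 of 15 probes had an unadjusted p under 0.05, against 20.5% and 27.1% of all probes. One probe is 6.67% of the 15, so a share of 1 probe in 15 cannot be told from these backgrounds. All of these backgrounds include the dim probes, and the shares of unadjusted p were not taken among the probes kept by the filter.

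**Figure D4:**
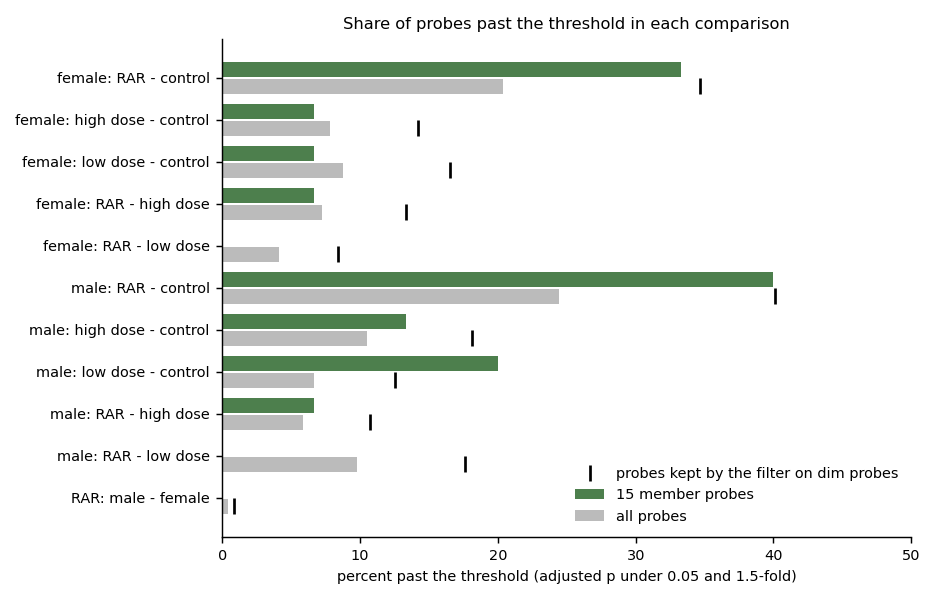
Percent of probes past the threshold (adjusted p under 0.05 and at least 1.5-fold, in either direction) in each comparison, for the 15 member probes (green bars), all 55681 probes (grey bars) and the 32711 probes kept by a filter on dim probes (black ticks). One member probe is 6.67% of the 15. For RAR against control the members reach 33.3% in females and 40.0% in males, close to the ticks at 34.7% and 40.1%.

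The third question was whether the sexes differed. Male and female RAR thymocytes differed in 0 of 15 member probes with limma, against 0.438% of all probes, and 1 of 15, the dim Fis1 probe, had an unadjusted p under 0.05, against 11.8% of all. The bright members differed between the sexes under RAR by −0.37 (Yme1l1, adjusted p = 0.453) to 0.05 (bright Fis1, adjusted p = 0.894). No member was past the threshold in all 4 contrasts of the sex difference (male minus female RAR, and this difference set against that of the control, of the high dose and of the low dose arrays), and the last 3 called 0 of 15 each with limma, against 0, 2 and 0 of the 55681 probes. An unadjusted p under 0.05 was found in 2, 0 and 2 of 15, against 7.62%, 4.73% and 7.08% of all probes. limma's F-test of the interaction between sex and treatment was past an adjusted p of 0.05 for 0 of 15 members and past an unadjusted p of 0.05 for 1, the dim Fis1 probe, at a limma adjusted p of 0.749. Over all probes 2 were past the adjusted and 6.45% past the unadjusted value. For the dim Fis1 probe, with 21 of its 24 Cy5 values not well above background, the calls turned on single arrays. Without the first female RAR array it was called in male against female RAR (−2.48, limma adjusted p = 0.0211), in RAR against control in females (1.76, limma adjusted p = 0.0127) and in males (−1.44, limma adjusted p = 0.018), and in male RAR against low dose (−1.44, limma adjusted p = 0.0334). Leaving out the value of each group farthest from the others gave 1.97 in females (limma adjusted p = 0.000123) and −1.60 in males (limma adjusted p = 0.000461) for RAR against control. That setting narrows the spread by construction, so its adjusted p is too small to be taken at face value.

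A wider list of 28 regulators of fission, fusion and cristae, with 1 probe per gene, went both ways. In RAR against control 4 rose and 6 fell in females, and 4 rose and 9 fell in males, with a median of −0.41 and −0.40. Over all probes 20.4% were called in females and 24.4% in males, in either direction. Among probes kept by the filter on dim probes the shares were 34.7% and 40.1%, so the regulator counts were near that background. Mtfr2, a relative of the mitochondrial fission regulator Mtfr1, rose in 10 of the 10 comparisons between treatments within a sex, by 1.43 (adjusted p = 3.11e-06) in females and 1.68 (adjusted p = 3.38e-07) in males for RAR. Inf2, a formin that builds actin at sites of division, rose by 1.09 (adjusted p = 5e-07) and 1.23 (adjusted p = 8.35e-08). Chchd3 and Chchd6, subunits of the MICOS complex that shapes the cristae, fell, with differences of −1.08 (adjusted p = 5.29e-06) and −1.101 (adjusted p = 2.89e-06) for Chchd3 and of −1.26 (adjusted p = 2.08e-06) and −0.89 (adjusted p = 5.51e-05) for Chchd6. Mief2, another receptor of DRP1, was past the threshold and lower in both sexes, but its Cy5 signal was well above background on 10 of 24 arrays, so no size is given. These last 4 were tied for the number of comparisons called, and all are named for that reason.

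A comparison list of 14 general mitochondrial genes (import, porins, chaperones and others) also went down. In RAR against control 8 of 14 fell in females and 8 of 14 in males, 0 rose, and the median was −0.60 and −0.61. The members had medians of −0.42 and −0.52, but over all 15 probes, with several per gene and the 2 dim ones. The list has only the brightest probe of each gene, so these medians are unlike measures. Of all probes 20.4% and 24.4% were called in either direction, and of those kept by the filter on dim probes 34.7% and 40.1%. Hspa9, the mitochondrial HSP70 chaperone, fell, with differences of −0.94 (adjusted p = 3.8e-07) and −1.004 (adjusted p = 1.11e-07). Timm23, the channel of the inner membrane import machine, fell, with differences of −0.65 (adjusted p = 7.39e-06) and −0.82 (adjusted p = 4.03e-07). Hspd1, the HSP60 chaperonin, fell by 0.59 (adjusted p = 8.3e-05) in females and differed by −0.57 (adjusted p = 0.0001) in males, just under 1.5-fold. Lower values were thus also measured in mitochondrial genes outside fission and fusion, and no test set the members apart from these.

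Markers of other cells moved with the same comparison. The counts below stand beside 20.4% of all probes called in females and 24.4% in males. Of the probes kept by the filter on dim probes, 34.7% and 40.1% were called. In RAR against control 5 of 10 myeloid genes rose in females and 7 of 10 in males, and 0 fell. Their summed Cy5 signal, in multiples of the 75th percentile of the array, lay between 92.2 and 160 in female controls and between 350 and 365 under RAR, and between 101 and 140 and between 338 and 509 in males. The summed B cell signal was up to 13.9 in female controls and between 5.43 and 6.92 under RAR, without overlap, and in males it lay between 9.87 and 11.1 in controls and between 4.09 and 4.68 under RAR. Of 5 B cell genes 3 fell in females and 4 in males. Of 10 genes of double-positive thymocytes 2 rose and 2 fell in females, and 4 rose in males, and their summed signal was lower under RAR (385 to 506 against 672 to 769 in females, 340 to 381 against 641 to 746 in males). Their median difference in log2(Cy5/Cy3) was 0.033 in females and 0.402 in males. The sum uses Cy5 alone and weighs the brightest genes most, so sum and median did not go the same way. Of 8 proliferation genes 2 fell in females and 3 in males, of 5 thymic epithelial genes 3 fell and 1 rose in each sex, and of 6 mature T cell genes 3 rose and 1 fell in females and 4 rose and 1 fell in males. The part of a changed cell mixture in the lower readings of the members was not tested.

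Among the members well above background on all arrays, Mtfp1 had the widest spread, with a range of 1.32 over the 8 group means. Of 12322 other named probes that were also well above background on all arrays, the 3 whose group means followed it most closely were those of Rrp9, a component of the U3 small nucleolar ribonucleoprotein, Ubl4a, a ubiquitin-like protein of the membrane protein insertion pathway, and Mrps25, a protein of the small mitochondrial ribosomal subunit. Each had a Pearson correlation of 0.994 with Mtfp1 over the 8 group means, which are the extremes of a search over all candidates and share the same arrays, and their own ranges were 1.14, 0.85 and 0.47.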

How the data were processed

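RNA of strained, unsorted thymocytes was labelled with Cy5 and hybridised with a Cy3 reference to Agilent mouse arrays. Per the file headers, images were read with Feature Extraction 11.5.1.1 and annotated on mm9. The deposited processed intensity of each dye was background-subtracted and dye-normalized by the authors' software, and the deposited log2 ratios were within 0.01 of the log2 ratio of these intensities for at least 99.77% of probes on every array. No dye swap was made, so a dye effect common to all arrays cancels only in differences. No value column was without a sample (0). Control spots were left out and no member spot was flagged as an outlier (0).

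Groups came from the labels, which call the samples independent. The deposited log2 ratios of the 24 arrays were fitted with limma 3.58.1 (R 4.3.3) as 8 group means, with Benjamini-Hochberg adjustment over 55681 probes. A probe was called at an adjusted p under 0.05 and at least 1.5-fold. The script was tested on simulated data. Number and signal of arrays, not depth, limit the precision. Every probe of the members is described, and from each further list the genes called in most comparisons are named (up to 3, more where tied), with the probe of the highest mean Cy5 signal standing for a gene. Members and lists were chosen with earlier results of these data known. One marker list is not reported here. Likeness was ranked by Pearson correlation over group means. Permutation tests were exact and two-sided (scipy 1.17.1), and figures were drawn with matplotlib 3.10.9. Alternatives were processed signals without outlier spots, normexp (offset 50) with loess, quantile normalization, the Cy5 channel scaled to its 75th percentile, a filter on dim probes, slide and replicate number as blocks, leaving out arrays, and other fold thresholds.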

Additional observations from a re-analysis of the deposited data

How the results depend on the processing

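Member counts under RAR in females and males were 5 and 6. With normexp and loess they were 1 and 0, and male high dose and male low dose gave 1 each and RAR against high dose 0 and 0. With quantile normalization male low dose gave 1, and RAR against high dose 2 in females and 0 in males. With the Cy5 channel alone, which shifted the median of all probes in RAR against control by up to 0.688, female RAR gave 8, male low dose 1, RAR against high dose 2 in females and 0 in males, and RAR against low dose 1 in females. With the slide as a block female RAR gave 3, female high dose 0 and male RAR against low dose 1. Leaving out, in every group, the value farthest from the others, high dose gave 3 in females and 4 in males, female low dose 3, RAR against low dose 2 and 2, male against female RAR 1, all 4 sex contrasts together 1, and the interaction 8. That setting picks values by their distance and so narrows the spread by construction. Without a fold threshold RAR gave 9 and 10, male high dose 5, female low dose 2, RAR against high dose 3 and 3, and RAR against low dose 2 and 4. At a log2 difference of at least 1.5 all 8 comparisons with a call gave 0. Processed signals without outlier spots and the filter on dim probes moved none of the 13 counts by over 1.5 times. Where no value is named, the cause of a change was not tested.

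Leaving out each of the 24 arrays gave 4 to 5 calls for female RAR, 5 to 8 for male RAR, 1 to 3 for male high dose, 1 to 2 for female low dose, 1 to 3 for male low dose, 0 to 1 for male RAR against high dose, 0 to 2 for male RAR against low dose and 0 to 1 for male against female RAR. Female low dose rose to 2 without the first female control array, and male RAR against low dose to 1 or 2 without the first female RAR, the third male RAR or the second male low dose array. Of 20 called pairs of probe and comparison, 6 lost the call without some array, none of them of Mtfp1 or Oma1.

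For single probes, the sign of RAR against control turned in differences that were not called. Over the 13 bright probes, the median of male minus female RAR was −0.123 and with quantile normalization 0.076, with 11 and 5 of 13 below 0. For male RAR against high dose 11 of 13 were below 0, and 7 with normexp and loess. For female RAR the bright Fis1 probe was at −0.37 with Cy5 alone, −0.0493 with the slide and −0.0472 to 0.0775 leaving out arrays. Dnm1l was at 0.0092 with the slide. Gdap1 was at −0.10 with normexp, −0.25 with the slide and −0.062 to 0.572 leaving out arrays. Mfn2 A_55_P2172747 was at 0.0245 with normexp. Opa1 A_55_P1964842 was at 0.15 with normexp, 0.063 with quantile normalization, 0.0384 with the farthest values left out and −0.0387 to 0.0675 leaving out arrays, and in males at 0.0489 with normexp.

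With the replicate number as a block, Mtfp1 was at −1.13 (adjusted p = 0.000317) in female RAR, and the member counts were again 5 and 6. Same-numbered arrays correlated in their deviations from the group means at −0.312 to 0.221 (median −0.00342), and 6 of 24 arrays correlated best with their own number, so the numbers were not taken as pairs.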
